A study of Mus musculus with 8 samples.

Results

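RNA polymerase III transcribes a few dispersed genes of short noncoding RNAs besides the large families of tRNA and 5S rRNA genes. Of these single genes, 10 are described here by their peaks in ChIP-seq of Polr1c, Mgea5 and Panx2. They are Rn7sk, Rn7s1, Rn7s2, Rmrp, Rpph1, Rnu6, Vaultrc5, Bc1, Rny1 and Rny3, chosen by name, and they are 10 of the 49943 genes that the RefSeq table of mouse assembly GRCm38.p6, which has the coordinates of mm10, places on the 21 main chromosomes. Each gene was taken with 2000 bp on either side, and it carried a peak where a deposited peak overlapped that window by at least 1 bp. All 10 were found in the table, with lengths from 101 to 345 bp and a median of 287 bp.

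The chromatin came from primary neural progenitor cells of the hippocampus of male C57BL/6 mice, fixed for 10 min in 1% formaldehyde, and all libraries share this source and strain, with no treatment and no genotype named. Each of the 3 proteins has 2 libraries, called replicate 1 and replicate 2, and each library has a peak list. The 2 input libraries were not analysed here. The labels do not say whether the replicates came from separate mice or cultures, so differences between them may only be technical. Neither the age of the mice nor the antibody is given in the sources used here, and peak lists hold no expression values with which the cell type could be checked against its markers.

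Polr1c is a subunit that RNA polymerases I and III share and RNA polymerase II lacks. Mgea5, also called Oga, takes the sugar O-GlcNAc off proteins, and Panx2 is a pannexin, a family of membrane channel proteins. RNA polymerase III finds its genes through different promoters. At tRNA genes, 7SL RNA genes, vault RNA genes and Bc1, the factor TFIIIC binds A box and B box elements inside the transcribed region, often with help from upstream elements. At the U6, 7SK, RNase P, RNase MRP and Y RNA genes the elements lie upstream, where a proximal sequence element binds the SNAPc complex, a TATA box binds TBP, and a distal element often holds an octamer. The RNAs serve unlike tasks, from protein targeting (7SL) and splicing (U6) to the restraint of transcription elongation (7SK).

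Sequence was at hand for 3 of the loci, from the RefSeq promoter table of GRCm38.p6. It is shown because these loci contrast a gene with internal elements (Bc1) with genes of upstream elements (Rpph1 and Rmrp) close to a protein-coding gene. Whether Rpph1 or Rmrp shares a promoter with that neighbour was not tested. All are read on the plus strand, 5′ to 3′. Bc1, chr7:144914220-144914519, runs from 250 bases before the start to 50 bases into the transcript, and its capitals mark those 50 transcribed bases. The stretch from Rpph1 to Parp2, chr14:50807666-50807896, has the 106 bases that lie in Rpph1 in capitals, and the 125 bases in lower case are the whole gap between the genes. The stretch next to Ccdc107, chr4:43493115-43493339, lies wholly between Rmrp and Ccdc107 and has no capitals. Rmrp ends at 43493059, so the part of the gap next to Rmrp is not shown.
Bc1: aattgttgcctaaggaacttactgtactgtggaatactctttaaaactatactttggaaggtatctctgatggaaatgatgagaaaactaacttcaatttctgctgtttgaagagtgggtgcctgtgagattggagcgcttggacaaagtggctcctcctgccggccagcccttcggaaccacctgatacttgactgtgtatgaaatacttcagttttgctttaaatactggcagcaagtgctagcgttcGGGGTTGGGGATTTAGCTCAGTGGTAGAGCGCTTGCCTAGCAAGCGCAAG
Rpph1 to Parp2: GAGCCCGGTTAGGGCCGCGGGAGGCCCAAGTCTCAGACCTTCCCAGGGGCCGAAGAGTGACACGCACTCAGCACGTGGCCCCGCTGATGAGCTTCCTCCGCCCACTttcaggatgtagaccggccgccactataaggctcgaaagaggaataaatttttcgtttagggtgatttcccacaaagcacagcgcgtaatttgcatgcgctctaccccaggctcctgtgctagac
Rmrp to Ccdc107: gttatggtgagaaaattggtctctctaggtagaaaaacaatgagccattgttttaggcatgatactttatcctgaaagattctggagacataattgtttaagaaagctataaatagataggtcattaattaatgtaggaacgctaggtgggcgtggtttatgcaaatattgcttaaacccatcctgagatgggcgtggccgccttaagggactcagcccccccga

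Letter motifs were looked for in these stretches on both strands, with their share in all 32851 promoter windows of 300 bases as background. The other 2 stretches are shorter than those windows, so the shares apply to them only roughly. An A box match began at base 14 of the Bc1 transcript, inside the capitals, and such a match was in 2.51% of the promoter windows. No B box match lay in the 50 transcribed bases shown, a window that ends before the gene does (0.362% of windows held one). TATAA, found in 24.9% of windows, was absent from the Bc1 stretch. It began 25 bp past the high-coordinate end of Rpph1 and 163 bp past that of Rmrp, both on the plus strand. That is the strand of Parp2 and Ccdc107, and the strands of Rpph1 and Rmrp are not given. The octamer ATTTGCAT, in 1.74% of windows, was found 89 bp past Rpph1 on the plus strand and 215 bp past Rmrp on the minus strand, and not at Bc1. CCAAT (37.4% of windows) matched once at Bc1 and once between Rmrp and Ccdc107, and GGTTC, the start of the B box (40.0%), matched only upstream of Bc1. Runs of TTTT, in 78.0% of windows, matched 3 times at Bc1, 2 overlapping times between Rpph1 and Parp2 and 4 times between Rmrp and Ccdc107. A match is a run of letters and not a measured site. No Polr1c or Panx2 peak and no Mgea5 replicate 2 peak touched any of the 3 stretches, while Mgea5 replicate 1 peaks covered 100% of the Bc1 stretch and of the Rpph1 to Parp2 stretch.

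The lists differ in length, which sets how a count should be read. The Polr1c lists hold 785 and 35727 peaks on the main chromosomes, the Mgea5 lists 536399 and 520997, and the Panx2 lists 145209 and 478180. Each peak carries the authors' fold enrichment, in MACS the ChIP pileup over the expected background, and a −log10 q. Peaks with a q of at most 0.01 number 216 and 1340 for Polr1c, 108 and 109 for Mgea5, and 11 and 369 for Panx2. By the directory in the peak names, the lists fall into 2 sets. Replicate 1 of Polr1c and of Panx2 form one, and the other 4 lists form the other. Whether the sets were called in separate runs or with other settings is not given. For these proteins replicate and set cannot be told apart. The depth of the libraries is unknown, and no test was made: counts over the 10 genes are set beside the share of the 6570 other genes of at most 500 bp that carry a peak by the same rule.

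Polr1c peaks lay on 5 of the 10 genes. Replicate 1 had a peak at 3 (Rn7s1, Rn7s2 and Vaultrc5), replicate 2 at those 3 and at Rn7sk and Rmrp, and 3 genes therefore had one in both lists. The shares of other short genes with a Polr1c peak within 2000 bp were 3.0% in replicate 1, 11.0% in replicate 2 and 2.68% in both. All 8 Polr1c peaks in the windows overlapped the gene itself, and all 8 summits lay inside it, so the counts on the gene were again 3, 5 and 3. Other short genes carried a peak on the gene in 2.15%, 3.74% and 1.7% of cases. Their median length is 119 bp, against 287 bp for the 10 genes, and a longer gene can be met by a peak more readily. The part of length in these counts was not tested. With peaks of q at most 0.01 only, 2 genes (Rn7s2 and Vaultrc5) were left in replicate 1, 3 in replicate 2 (with Rmrp) and 2 in both, against 2.1%, 3.27% and 1.67% of other short genes.

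**Figure D1:**
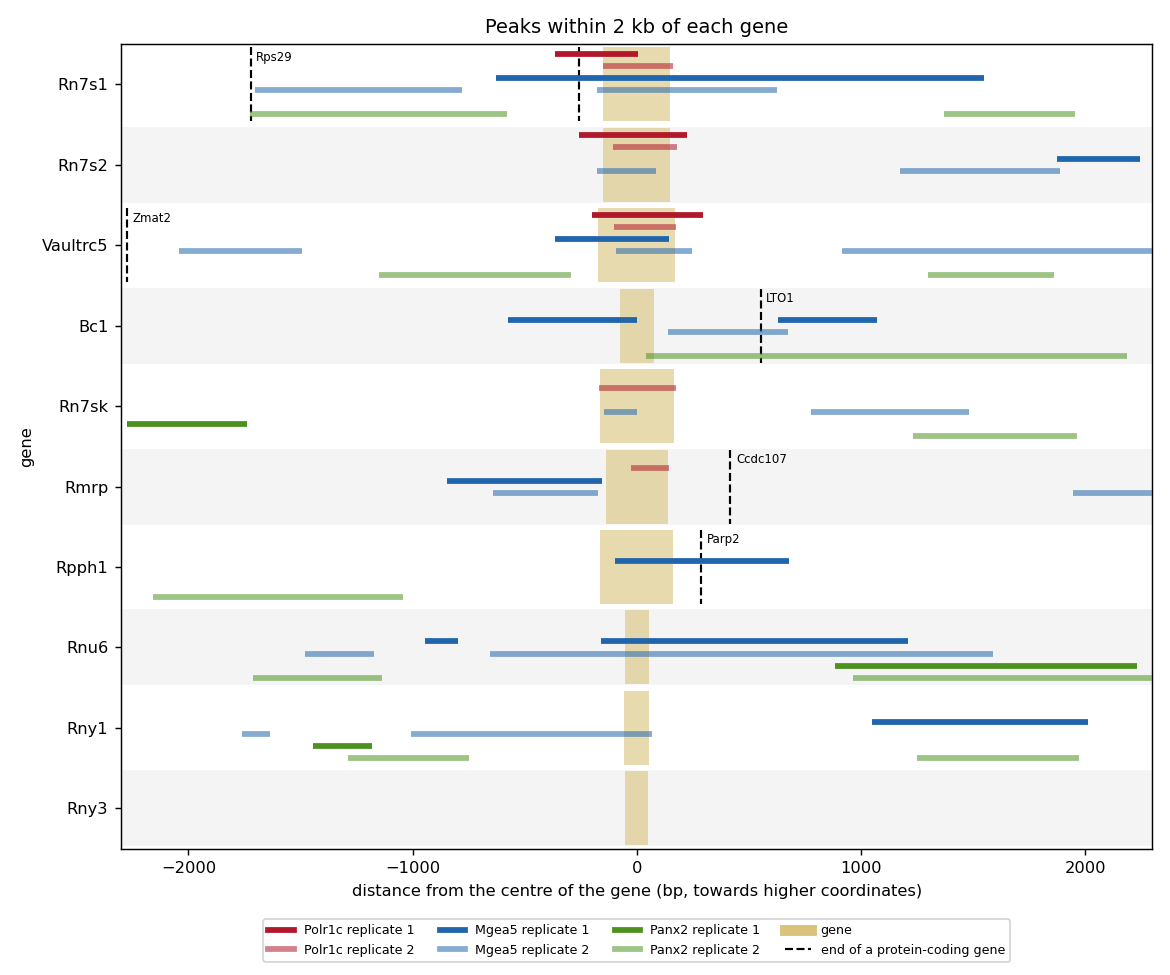
Peaks of the 6 lists around each of the 10 genes, drawn to scale by distance in bp from the centre of the gene towards higher coordinates. Bars are peaks (dark for replicate 1, light for replicate 2), the shaded box is the gene and dashed lines are ends of protein-coding genes. The 8 Polr1c bars sit on the genes, while most of the 40 Mgea5 and Panx2 bars lie beside them, and Rny3 has no bar.

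Vaultrc5, the gene of the RNA part of the vault particle, carried the highest Polr1c folds of the 10. It lies on chromosome 18 from 36801763 to 36802107 (345 bp). The replicate 1 peak, from 36801735 to 36802230, had a fold of 7.4 (q 4.56e-08) and covered 100% of the gene. The replicate 2 peak, from 36801832 to 36802112, had a fold of 5.61 (q 1.98e-10) and covered 80.0%. These folds ranked 56th of 785 and 161st of 35727. The summits lay 222 and 212 bp from the low-coordinate end of the gene, 10 bp apart. The nearest protein-coding gene, Zmat2, ends 2102 bp below Vaultrc5, outside the window, and the peaks stopped 2074 and 2171 bp short of it.

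Rn7s1 and Rn7s2 are copies, equal in length, of the gene for 7SL RNA, the scaffold of the signal recognition particle that brings ribosomes to the endoplasmic reticulum. They lie 201589 bp apart on chromosome 12, and because they are copies, how reads were shared between them is uncertain. At Rn7s2 (69361183 to 69361481) the peaks had folds of 4.46 and 2.55 in replicates 1 and 2, with q of 0.0034 and 0.00162. They covered 100% and 84.9% of the gene, and its nearest protein-coding neighbour, Nemf, a factor of ribosome quality control, is 3981 bp away. At Rn7s1 (69159295 to 69159593) the folds were 3.41 and 2.38, with q of 1.0 and 0.148, so Rn7s1 had the lower fold and the higher q of the copies in each list. The peaks on Rn7s1 differed in extent. The replicate 1 peak, from 69159079 to 69159450, covered 52.2% of the gene and reached into Rps29, a gene of the small ribosomal subunit that ends 108 bp below Rn7s1. The replicate 2 peak, from 69159293 to 69159605, covered 100% of Rn7s1 and stopped 106 bp short of Rps29. Within their own lists the replicate 1 folds of Rn7s2 and Rn7s1 equalled or exceeded those of 77.7% and 66.8% of peaks. In replicate 2 the shares were 35.0% and 16.3%.

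Bc1, a rodent RNA of neurons that derives from a tRNA gene and represses translation in dendrites, had no Polr1c peak in its window, although it belongs with the genes of internal promoters. The gene lies on chromosome 7 from 144914470 to 144914623. The nearest Polr1c peaks were 426 kb and 18.5 kb away in replicates 1 and 2. Of the 4 genes with internal elements, then, 3 carried Polr1c peaks on the gene in both lists and Bc1 in neither.

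Of the 6 genes with upstream elements only, none carried a Polr1c peak in replicate 1 and 2 did in replicate 2. Rmrp, the RNA of RNase MRP, which cuts precursors of ribosomal RNA, lies on chromosome 4 from 43492785 to 43493059. Its replicate 2 peak, from 43492898 to 43493067, had a fold of 3.06 (q 0.00381), equal to or above 78.9% of its list. This peak covered 58.9% of the gene and stopped 272 bp short of Ccdc107, whose own end is 280 bp from Rmrp. It left the printed stretch between the genes untouched, but it ran past the end of Rmrp into the bases not printed. The nearest replicate 1 peak was 2040 kb away. Rn7sk, the gene of 7SK RNA, which with Hexim and Larp7 proteins holds the elongation kinase P-TEFb inactive, lies on chromosome 9 from 78175302 to 78175633. Its replicate 2 peak, from 78175300 to 78175644, matched the gene nearly end to end. It had a fold of 2.36, equal to or above 15.5% of its list, and a q of 0.429. The nearest replicate 1 peak was 1310 kb away. The closest protein-coding gene, Cilk1, is 3187 bp away, and the lncRNA gene C920006O11Rik is 280 bp away.

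The other 4 had no Polr1c peak within 2000 bp in either list. Rpph1 encodes the RNA of RNase P, which trims the leaders of tRNA precursors, and lies on chromosome 14 from 50807447 to 50807771, 125 bp from Parp2, a poly(ADP-ribose) polymerase gene. Its nearest Polr1c peaks were 256 kb and 122 kb away. Rpph1 sits in a stretch that is poor in peaks of every list: beyond 45 Mb of chromosome 14 the peaks per Mb were 0.194 and 0.104 of those on the other autosomes for Polr1c, 0.166 and 0.104 for Mgea5 and 0.0825 and 0.221 for Panx2. The part of that shortage in the lack of a peak at Rpph1 was not tested. Rnu6, a gene of U6 RNA, which forms the catalytic core of the spliceosome, lies on chromosome 17 from 13432033 to 13432139, 54809 bp from the nearest protein-coding gene, Tcp10c. Its nearest Polr1c peaks were 102 kb and 5.58 kb away, and because U6 has many near-identical copies, how its reads were placed is uncertain. Rny3 and Rny1 encode Y RNAs, which bind the Ro60 and La proteins, and lie 6345 bp apart on chromosome 6, at 47781624 to 47781724 and 47788070 to 47788180. Pdia4, an endoplasmic reticulum disulfide isomerase gene, is their nearest protein-coding gene, 14416 and 7960 bp away. The nearest Polr1c peaks, on the Rny3 side, were 8.48 kb and 3.32 kb from Rny3 and 14.9 kb and 9.77 kb from Rny1. They had folds of 4.42 and 3.17 and −log10 q of 3.12 and 14.9, and no annotated gene lay on them. The copy number of the stretch that holds them was not tested.

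**Figure D2:**
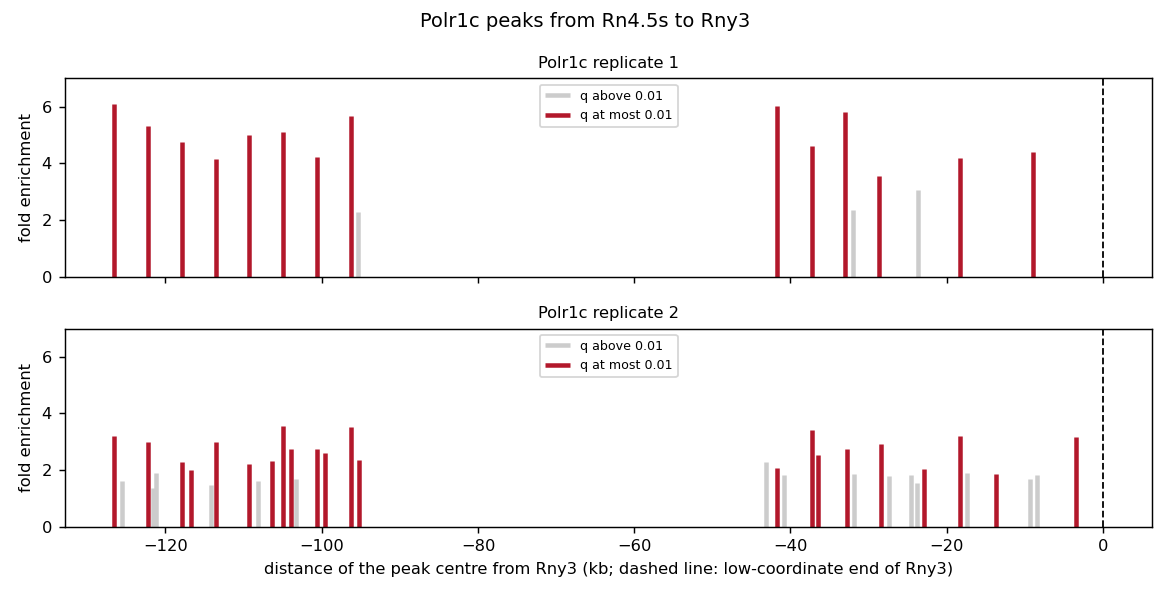
Polr1c peaks from Rn4.5s (left) to Rny3 (dashed line), by distance in kb of the peak centre from Rny3, with fold enrichment as height and a panel for each replicate (red for a q of at most 0.01, grey above). The nearest peaks end 8.48 kb and 3.32 kb short of Rny3 and the stretch holds 17 peaks in replicate 1 and 37 in replicate 2.

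The sorting of the 10 genes by promoter kind rests on textbook knowledge and was made with the values known. Its counts (3 of 4 against 0 of 6 with peaks in both lists) are therefore a description. In replicate 2 they were 3 of 4 against 2 of 6, and with q of at most 0.01 Rn7s2, Vaultrc5 and Rmrp were left there. Rn7s1 and Rn7s2, which count separately, are copies. The plot of the highest fold at each gene sets each value beside the median of its own list.

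**Figure D3:**
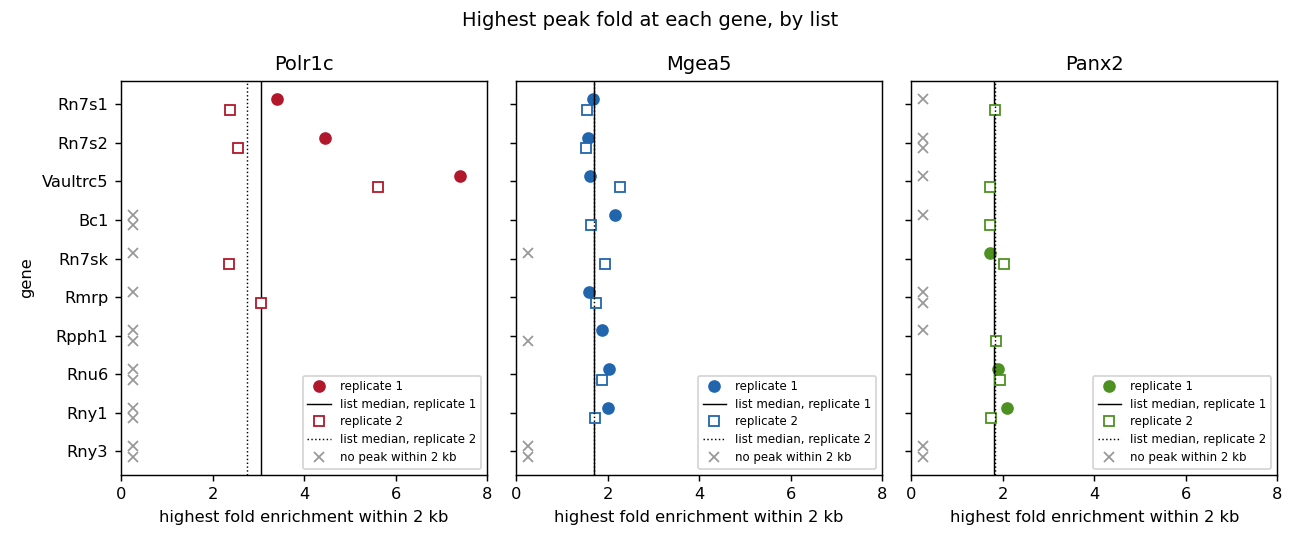
Highest fold enrichment of any peak within 2 kb of each gene, with a panel for each protein (filled circles replicate 1, open squares replicate 2, crosses no peak, lines the median fold of each list). In the Polr1c panel Vaultrc5, at 7.4 and 5.61, is the highest of the 10 in both lists. The panels show narrow peaks (Polr1c) and broad peaks (Mgea5 and Panx2) called with other limits, so folds are to be read within a panel.

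Among short genes, those with Polr1c peaks on the gene in both lists were mostly tRNA genes: 102 of 115, with 13 others, among them Vaultrc5, Rn7s2 and Rn7s1. The 102 tRNA genes had folds from 2.47 to 10.62 in replicate 1 (median 5.66) and from 1.8 to 6.45 in replicate 2 (median 3.6). In replicate 1, 18 of them exceeded Vaultrc5, 85 exceeded Rn7s2 and 97 exceeded Rn7s1, and in replicate 2 the numbers were 2, 92 and 96. By these counts Vaultrc5 stood near the top of the tRNA genes in replicate 2 and in their upper part in replicate 1. The 7SL genes stood in their lower part in both lists.

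**Figure D4:**
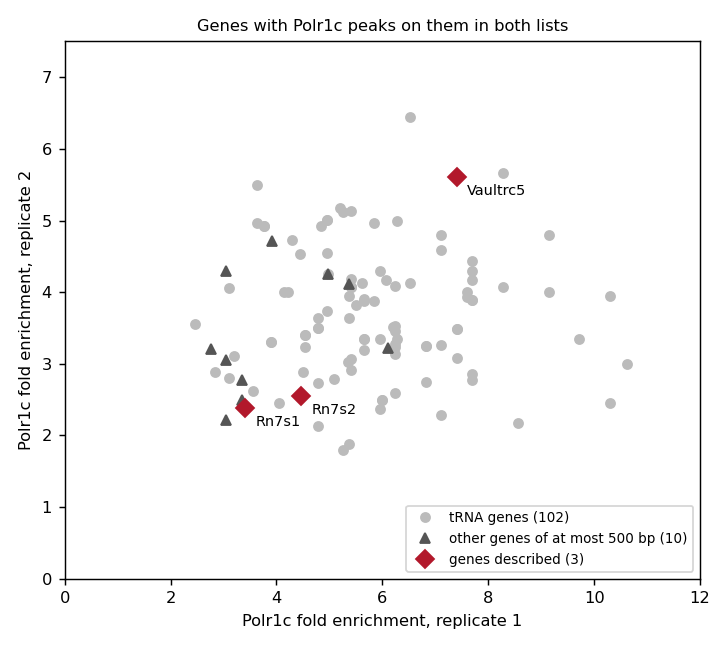
Fold enrichment of the Polr1c peak on the gene in replicate 1 (horizontal) and replicate 2 (vertical) for the 115 genes of at most 500 bp with such peaks in both lists, as 102 tRNA genes (grey circles), 10 other genes (triangles) and Vaultrc5, Rn7s2 and Rn7s1 (diamonds). Vaultrc5, at 7.4 and 5.61, lies at the upper right, and Rn7s1, at 3.41 and 2.38, at the lower left.

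By class, Polr1c peaks of both lists within 2000 bp were found at 35.5% of 408 tRNA genes and 23.8% of 63 rRNA genes, and at 0.299% of 1002 snRNA, 0.224% of 1340 snoRNA, 0.57% of 1228 miRNA, 0.109% of 1830 pseudogene and 0.826% of 121 short protein-coding genes. None of 48 short lncRNA genes had them. The share was 5.45% among the 807 short genes with an end of a protein-coding gene in the window and 2.29% among the 5763 without, a difference that was not tested. Of the 10 genes, 4 have a protein-coding gene within 2000 bp (Rn7s1, Rmrp, Rpph1 and Bc1) and 6 do not. Those with Polr1c peaks in both lists were Rn7s1 of the first kind and Rn7s2 and Vaultrc5 of the second.

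**Figure D5:**
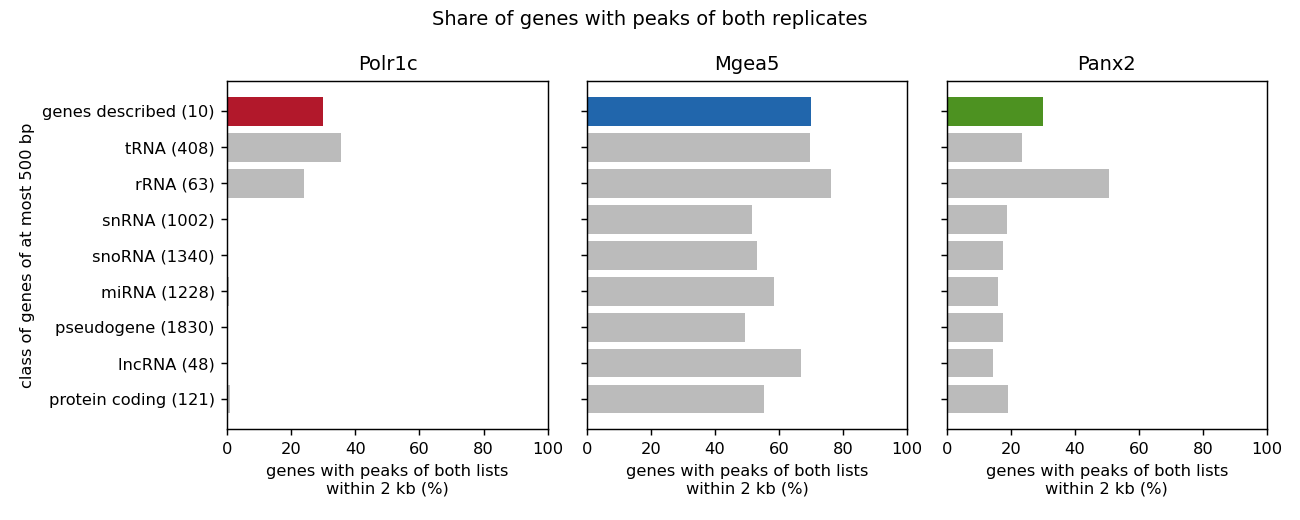
Share in percent of genes with peaks of both lists within 2 kb, for the 10 genes described (coloured) and for classes of other genes of at most 500 bp (grey, number of genes in brackets), with a panel for each protein. For Polr1c the tRNA bar (35.5%) and the rRNA bar (23.8%) stand out from the other grey bars, whereas for Mgea5 and Panx2 every class has a sizeable bar. Genes that lie close together can share a peak.

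Mgea5 peaks lay in the windows of 8 genes in replicate 1 and of 8 in replicate 2, and 7 had them in both (Rn7s1, Rn7s2, Rmrp, Rnu6, Vaultrc5, Bc1 and Rny1). The shares of other short genes were 69.1%, 62.0% and 51.3%, so the counts are near the background. On the gene itself the counts were 5, 6 and 3 (Rn7s1, Rnu6 and Vaultrc5 in both), against 23.0%, 17.6% and 6.58% of other short genes. Here too the 10 genes are longer (median 287 bp against 119 bp), and the part of length was not tested. None of these Mgea5 peaks had a q of at most 0.01. The highest folds per gene ran from 1.57 to 2.16 in replicate 1 (median 1.77) and from 1.53 to 2.26 in replicate 2 (median 1.73), close to the medians of all peaks in those lists (1.71 in each).

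Panx2 peaks lay in the windows of 3 genes in replicate 1 and of 7 in replicate 2, and 3 had them in both (Rn7sk, Rnu6 and Rny1), against 24.5%, 65.2% and 17.4% of other short genes. On the gene itself there were 0, 1 (Bc1) and 0, against 5.49%, 21.8% and 1.43%. The highest folds ran from 1.73 to 2.1 in replicate 1 and from 1.72 to 2.03 in replicate 2, beside list medians of 1.8 and 1.84. At Rmrp the nearest Panx2 peaks were 2028 and 2215 bp away, just outside the window.

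None of the 40 Mgea5 and Panx2 peaks in the windows had a q of at most 0.01. The −log10 q was 0 for 31 of them, and the highest was 0.196. That peak, of Mgea5 replicate 2, lay on Vaultrc5 from 36801842 to 36802183 with a fold of 2.26, equal to or above 99.2% of its list. Mgea5 replicate 1 had a fold of 1.61 on the same gene. At Rn7sk, Mgea5 replicate 2 had a peak of 149 bp on the gene with a fold of 1.95, and the nearest replicate 1 peak was 5.8 kb away. The peaks on Rnu6 were wide, at 1368 and 2246 bp, with folds of 1.97 and 1.88. On Bc1 and the printed stretch before it, the Mgea5 replicate 1 peak from 144913971 to 144914547 had a fold of 1.85, and a further peak of fold 2.16 lay by LTO1, whose end is 476 bp from Bc1. Replicate 2 passed Bc1 by 62 bp with a fold of 1.64. At Rpph1 the Mgea5 replicate 1 peak, from 50807513 to 50808287, had a fold of 1.87, covered 79.7% of the gene and ran on over the start of Parp2, and the nearest replicate 2 peak was 13.9 kb away. At Rmrp the Mgea5 peaks stopped 16 and 36 bp below the gene, with folds of 1.59 and 1.43. Rny3 had no peak of any list in its window, the nearest Mgea5 peaks being 3429 and 3455 bp away and the nearest Panx2 peaks 4957 and 3373 bp.

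Of the Polr1c peaks on these genes, an Mgea5 peak of at least 1 list overlapped 3 of 3 in replicate 1 and 4 of 5 in replicate 2, the exception being Rmrp, and Rn7s1, Rn7s2 and Vaultrc5 enter both counts. On other genes of at most 500 bp the Mgea5 lists overlapped 71.8% of 110 and 72.6% of 230 Polr1c peaks, and over all Polr1c peaks 64.7% and 63.6%, so the counts are near what these long lists give elsewhere. No Panx2 peak overlapped a Polr1c peak on the 10 genes (0 of 3 and 0 of 5), against 46.4% and 55.2% on other short genes, a difference that was not tested. On Rn7s1 both Mgea5 lists overlapped both Polr1c peaks with folds of 1.67 and 1.51, on Vaultrc5 both did with 1.61 and 2.26, on Rn7s2 only replicate 2 did, with a fold of 1.4, and on Rn7sk replicate 2 overlapped the single Polr1c peak with 1.95. The −log10 q of these Mgea5 peaks was 0 apart from the replicate 2 peaks on Vaultrc5 (0.196) and Rn7sk (0.108).

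Other genes of the system were counted from fixed symbol lists by the same rule. The list of RNA polymerase II genes with Rnu symbols holds 20 entries: 9 snRNA genes, 5 genes of the U3 snoRNA and 6 pseudogenes. Of these, 0 had a Polr1c peak in replicate 1 and 2, or 10.0%, in replicate 2, near the 11.0% of other short genes. They were Rnu1b1 (fold 2.44) and Rnu1b6 (2.83), U1 snRNA genes, and neither had a q of at most 0.01. Of 70 other RNA polymerase III genes, mostly 5S rRNA genes, 11 (15.7%) had one in replicate 1, 44 (62.9%) in replicate 2 and 11 in both, beside 3.0%, 11.0% and 2.68% of other short genes. Peaks of q at most 0.01 were at 1 and 36 of them. The 5S genes are near-identical copies, so how their reads were placed is uncertain. Many of them also lie closer together than the window reaches, so a single peak can count for several genes. Among these, Rn4.5s, the gene of the rodent 4.5S RNA, had folds of 6.11 and 3.22. The highest folds within 2000 bp were 3.92 and 4.71 at both n-R5s138 and n-R5s139, neighbouring 5S genes. At n-R5s123 and n-R5s124, also neighbours, they were 3.34 and 4.28. In replicate 1 the −log10 q was 0 at each of these 5S genes. On the gene itself n-R5s123 had 3.34 and 2.78.

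The genes of proteins that bind these RNAs, and of those that act at their promoters, are transcribed by RNA polymerase II. For these genes, peaks were counted within 2000 bp of either end. Of 40 genes of partner proteins, 0 had a Polr1c peak in replicate 1 and 7 (17.5%) in replicate 2, and of 19 genes of promoter factors 0 and 7 (36.8%) did. Over all 21887 protein-coding genes the shares were 0.745% and 23.5%, and in both lists 0.644%. A q of at most 0.01 was reached at 2 of these 14 genes, Gtf3c5 (−log10 q 4.16) and Zfp143 (2.77). The share of all protein-coding genes with such a peak is not given here, so this count has no background beside it. At Mepce, Lsm8, Brf2 and Gtf3c2 the −log10 q was 0. The 7 partner genes were Mepce, which caps 7SK RNA (fold 2.0), the signal recognition particle genes Srp9 (3.67) and Srp68 (2.75), the RNase P gene Rpp40 (2.75), the U6-binding genes Lsm5 (3.14) and Lsm8 (2.41), and Syncrip (2.73), an RNA-binding protein gene. The 7 factor genes were Brf2 (2.45), the TFIIIB subunit of upstream promoters, Bdp1 (3.11), Gtf3c2 (2.0) and Gtf3c5 (3.75) of TFIIIC, the repressor Maf1 (2.42), Zfp143 (3.06) and Pou2f1 (3.16), which binds the octamer. Both lists of Mgea5 had peaks at 34 of the 40 partner and 18 of the 19 factor genes, and both lists of Panx2 at 21 and 10, beside 78.3% and 33.2% of all protein-coding genes.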

How the data were processed

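Peaks came from ChIP-seq of Polr1c, Mgea5 and Panx2, with 2 replicates each. Tools listed in the submitters' processing notes are MACS3 3.0.0a5, Bowtie2 2.3.5 and Trim Galore, and the build is mm10. The sources used here do not give the control, the cut-offs or any filter on duplicates or repeats. The deposited value of each peak is its fold enrichment, a ratio, with −log10 p and −log10 q also deposited by the authors, and folds are compared here only within their own list, except that the geometric mean of both Polr1c folds ordered the genes to be named. The lowest −log10 p was 2.0 in the narrow Polr1c lists and 1.0 in the broad Mgea5 and Panx2 lists, so many deposited peaks are weak. The lists were matched to samples by protein and replicate number, and 0 columns were left unmatched.

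Overlaps were computed with Python 3.11.15, numpy 2.4.6 and pandas 2.3.3 on the 21 main chromosomes, and the overlap code was tested on simulated data. Coordinates are 1-based. The gene table gives no strand. Background genes (median length 119 bp) were treated like the 10 genes. The genes and lists were chosen with earlier results of these data known, so no test was made. Genes named are the 10, their protein-coding neighbours and, from other lists, those with Polr1c peaks in both replicates, up to 5 per list by that mean. The partner, factor and snRNA genes with a peak in replicate 2 alone were named after their values were seen. Alternatives changed the window (0, 1000 or 5000 bp), the overlap rule (summit or centre of the peak in the window), the q threshold, the background and the replicates used.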

Additional observations from a re-analysis of the deposited data

How the results depend on the processing

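Of 66 alternative settings, 39 left a value within 1.5 times of that reported and 27 moved it further. With q of at most 0.01, Polr1c replicate 2 had peaks at 3 genes, Mgea5 replicates 1 and 2 and both at 0, 0 and 0, and Panx2 at 0, 0 and 0. On the gene itself, Mgea5 replicate 1 had peaks at 5 and both replicates at 3, and Panx2 replicates 1 and 2 and both at 0, 1 and 0. Panx2 replicate 1 and both replicates had peaks at 1 and 1 genes with 1000 bp, and at 6 and 6 with 5000 bp. Leaving out a replicate gave 3 to 5 genes for Polr1c and 3 to 7 for Panx2.

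The share of other genes with peaks of both replicates moved to 1.15% for Polr1c and 46.1% for Panx2 over all other genes, and to 1.37% for Polr1c, 84.8% for Mgea5 and 60.4% for Panx2 over protein-coding genes. With q of at most 0.01 it was 1.67%, 0.0913% and 0.0152%. Without tRNA, rRNA and snRNA genes, an alternative added after seeing the data, it was 0.255% for Polr1c.

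No paired analysis was made, as no result comes from a test. Depth and duplicate handling are unknown, so a missing peak does not show that a gene was unbound, and copies such as Rn7s1, Rn7s2 and Rnu6 depend on how multiply mapped reads were placed.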

Other observations

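Between Rn4.5s and Rny3 on chromosome 6, a stretch of 127 kb chosen after its values were seen, Polr1c peaks of replicate 1 stood at near-regular steps. Replicate 1 had 17 peaks there, 14 of them with a q of at most 0.01 and folds from 3.54 to 6.11. Of the 13 steps from the start of each of these 14 peaks to the next, 10 measured from 4000 to 4500 bp, with a median of 4337 bp. The longest step, 54610 bp, parts a group on the Rn4.5s side from a group on the Rny3 side. All 14 overlapped a replicate 2 peak, 13 of them one with a q of at most 0.01. In replicate 2, 22 of 37 peaks had a q of at most 0.01, with folds from 1.86 to 3.55, and their steps were less regular: 5 of 21 measured from 4000 to 4500 bp, the median was 3496 bp and the smallest 739 bp. Of the 14 replicate 1 peaks, 8 lay on an annotated gene, 1 of them on Rn4.5s, and the stretch holds 1 annotated tRNA, rRNA, snRNA, scRNA or Y RNA gene. The Mgea5 lists (25 and 20 peaks) and Panx2 replicate 1 (13 peaks) had no peak with a q of at most 0.01 there. Panx2 replicate 2 had 11 such peaks, of its 369 in all, with folds from 2.03 to 2.71. They overlapped 9 of the 14 Polr1c peaks. The shares of replicate 1 Polr1c peaks elsewhere with such overlaps, by Polr1c or Panx2 replicate 2, are not given here. The counts therefore do not show the overlaps to be particular to this stretch. Whether the stretch is a repeat array or has a raised copy number was not tested, since neither the genome sequence nor the input reads were used, so what a fold measures there is uncertain for Polr1c and Panx2 replicate 2 alike.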
